A study of Mus musculus with 13 samples.

Results

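The effect of AP20187 was compared between white and brown fat as a difference of 2 changes: AP20187 minus vehicle in white fat, minus AP20187 minus vehicle in brown fat. The comparison used 10 of the series' 13 arrays and 23928 features, of which 14893 carry a gene name. All mice were male C57BL/6J. The 10 arrays hold fat of mice transgenic for mAP::Fv2E-PERK, and the labels do not spell out which promoter or which fat cells the first part of that name stands for. Animals received AP20187 (100 ng/g, intraperitoneal) or vehicle 12 h before tissue was taken. The injection protocol speaks of muscles, whereas the arrays are labelled as fat. White fat had 3 AP20187 and 3 vehicle arrays, and brown fat had 2 and 2. The other 3 arrays hold white fat of untreated wild-type mice. They entered the estimate of the spread, the filter on dim probes, the choice of each gene's probe and the marking of weak areas. No change reported here was computed against them. No wild-type animal given AP20187 is among the samples, so an effect of the compound without the transgene cannot be told apart from an effect through it. The labels do not say that arrays come from separate animals, so the p-values measure the spread between arrays, which may be technical.

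PERK is a kinase of the endoplasmic reticulum (ER) membrane that phosphorylates the translation factor eIF2alpha when unfolded protein accumulates. This slows most protein synthesis but favours translation of the transcription factor ATF4, which with CHOP (encoded by Ddit3) switches on genes of amino acid supply, redox balance and feedback. The programme is called the integrated stress response (ISR). Fv2E-PERK joins the PERK kinase domain to a module that AP20187 pulls together in pairs, so that the kinase can be switched on without unfolded protein. White fat mainly stores triglyceride, and brown fat burns fuel for heat through uncoupling protein 1 (Ucp1).

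ATF4 and CHOP bind a composite DNA element, and the sterol-sensing factor SREBP2 binds another. Listed targets of both are described below, so 4 promoters that hold one of these elements are shown. They are windows of the RefSeq promoter of each gene, build GRCm38.p6, upstream of the start site, with the matching bases in capitals. Matches were sought on both strands to TGATGNAAN for the ATF4 and CHOP element and to TCACNCCAC for the sterol element, and the searched letters do not overlap each other.
Chac1, chr2:119351023-119351081, plus strand: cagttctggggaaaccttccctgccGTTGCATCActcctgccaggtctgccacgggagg
Nupr1, chr7:126625548-126625606, minus strand: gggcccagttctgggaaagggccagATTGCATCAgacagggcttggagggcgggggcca
Asns, chr6:7693210-7693257, minus strand: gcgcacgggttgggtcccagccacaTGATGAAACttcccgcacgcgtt
Hmgcs1, chr13:119690189-119690247, plus strand: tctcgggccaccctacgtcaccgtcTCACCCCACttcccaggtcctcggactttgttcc
The first 2 belong to genes whose brown fat response was the larger, Asns to a gene with changes above 0 in both tissues, and Hmgcs1 to the sterol genes that were higher in treated white fat. Of all 32851 promoters in the table, 3.95% hold a match to the first element and 1.24% to the second. Counted per gene, the shares are 4.5% and 1.44% of 27025 genes with a promoter in the table. Among those genes, the first element was found for 7 of 18 ISR genes, 3 of 12 genes of amino acid and one-carbon synthesis and 1 of 16 cholesterol genes. The sterol element was found for 1 of 16 cholesterol genes and for none of the 18 ISR genes. The ISR genes with a match were Atf3, Trib3, Chac1, Nupr1, Vldlr, Herpud1 and Jdp2. A match describes these letters only and says nothing about binding.

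One vehicle array has labels that contradict each other: its title says brown fat and its source name says white fat. It was counted as white fat vehicle replicate 3. On that array Ucp1 stood at -4.57 (every level here is a log2 signal from which the array's 75th percentile was subtracted), against -7.23 and -5.28 on the other white fat vehicle arrays and 9.87 to 10.63 on the 4 brown fat arrays. The mean of 9 mesothelial markers, genes of the lining of visceral fat, was 1.96 on it, against 1.67 to 2.25 on the other white fat arrays and -5.04 to -4.61 on the brown. Brown adipocyte markers averaged 3.82 to 4.43 on the brown arrays and -1.91 to -0.34 on the white. Between 46.4 and 64.0% of the spots of an array were well above background, and the number of arrays limits the precision. All brown fat arrays lie on one slide and were dimmer, with a median signal of 7.9 to 11.1 against 18.2 to 39.2 for the white fat arrays compared, so tissue and slide cannot be told apart in a level. Each brown change was measured within that slide. In white fat, vehicle replicates 2 and 3 and all AP20187 arrays share a slide and vehicle replicate 1 lies on another. Treated white fat arrays were dimmer than the vehicle ones, with median signals of 18.2 to 22.7 against 32.3 to 39.2. Of 23928 features, 1531 were above background on no treated white fat array and 145 on no vehicle array of white fat.

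**Figure D1:**
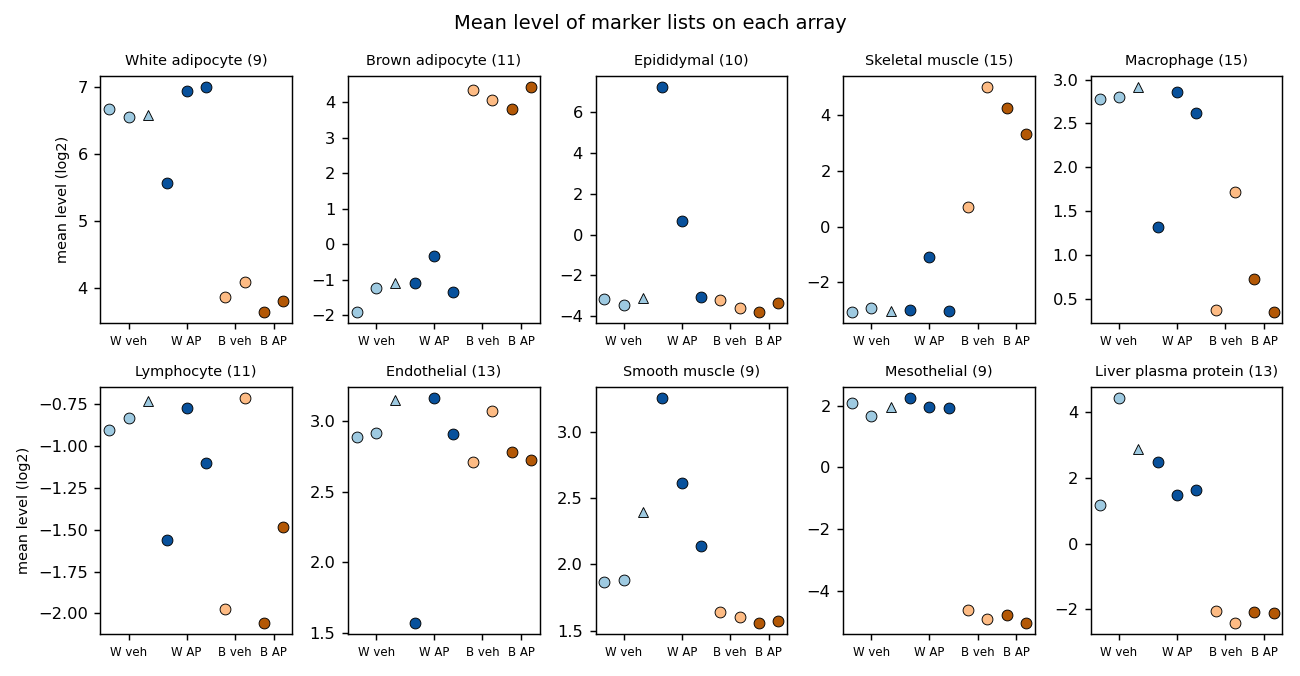
Mean level (log2, vertical axis) of each of 10 marker lists on the 10 arrays, with the number of tested genes in parentheses; W is white fat, B brown fat, veh vehicle, AP AP20187, and the triangle is the array with contradictory labels. That array sits with the white fat in the brown adipocyte and mesothelial panels, and white fat AP20187 replicate 1 stands apart at 7.23 in the epididymal panel.

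Tested feature by feature, the difference between the tissues did not pass for any gene. With limma and Benjamini-Hochberg adjustment at 0.05, 0 of 23928 features (0.0%) differed, the smallest adjusted p was 0.0508, and 4543 features (19.0%) had an unadjusted p under 0.05. At an adjusted p under 0.1 there were 1160, of which 930 had the higher change in white fat and 230 in brown. In white fat alone 1940 features (8.11%) passed, 1563 up (6.53%) and 377 down (1.58%). In brown fat 4 features (0.0167%) passed, all up, with 2082 (8.7%) at an unadjusted p under 0.05. Those 4 were Snhg12, Gramd1b and 2 probes without a gene name. The median standard error of the difference was 0.43 on the log2 scale.

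These counts moved with the scaling of the arrays. The median change of all features was 0.15 in white fat and -0.04 in brown, and the median difference 0.17. Scaled on the probes detected on all arrays, those medians were -0.14, -0.06 and -0.10, the difference passed for 72 features (12 higher in white fat, 60 in brown) and the white fat change for 986 (197 up, 789 down). The balance of higher and lower calls in white fat therefore depends on where zero is set, and the gene lists below are given relative to the median of all features. Quantile scaling gave 23 differences (8 higher in white fat, 15 in brown) and 254 white fat calls (158 up, 96 down). Leaving out the array with contradictory labels gave 0 differences, 542 white fat calls and 2 brown fat calls. Without white fat vehicle replicate 1, and so within the slide that holds both white fat groups, 0 white fat changes passed, and in a fit of the 10 arrays alone 0 passed in either tissue.

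The changes of the tissues did not run together. Across the 23928 features Pearson's r between the white and the brown change was -0.006 and Spearman's rho -0.016, as a description over features, which are not independent. To sort genes by response without a test, a feature was called moved in a tissue if its change lay at least 1 log2 unit from the median of all features and its AP20187 and vehicle arrays did not overlap. By this rule 1506 features (6.29%) moved in white fat, 334 up (1.4%) and 1172 down (4.9%). Treated white fat arrays were dimmer than the vehicle ones, and the part of this in the falls was not tested. In brown fat 1090 (4.56%) moved, 532 up (2.22%) and 558 down (2.33%). Both tissues moved the same way for 65 features (0.272%), 13 up (0.0543%) and 52 down (0.217%). They moved in opposite directions for 57 (0.238%), 21 up in white fat and down in brown (0.0878%) and 36 the other way round (0.15%). The 13 shared gains are 3.89% of the features that moved up in white fat and 2.44% of those in brown. The 52 shared falls are 4.44% and 9.32% of the features that moved down. The 21 that were higher in white and lower in brown fat are 6.29% and 3.76%, and the 36 the other way round 3.07% and 6.77%. Of all features 2.22% moved up and 2.33% down in brown fat, and 1.4% up and 4.9% down in white. White fat moved alone, with the brown change within 0.5 of its median, for 929 features (3.88%), 197 up (0.823%) and 732 down (3.06%). Brown fat moved alone for 580 (2.42%), 317 up (1.32%) and 263 down (1.1%). In brown fat no array was above background for 19 of the 57 opposite features, 16 of the 65 shared ones, 223 of the 929 that moved in white fat alone and 96 of the 580 that moved in brown fat alone, so their brown change is not measured.

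**Figure D2:**
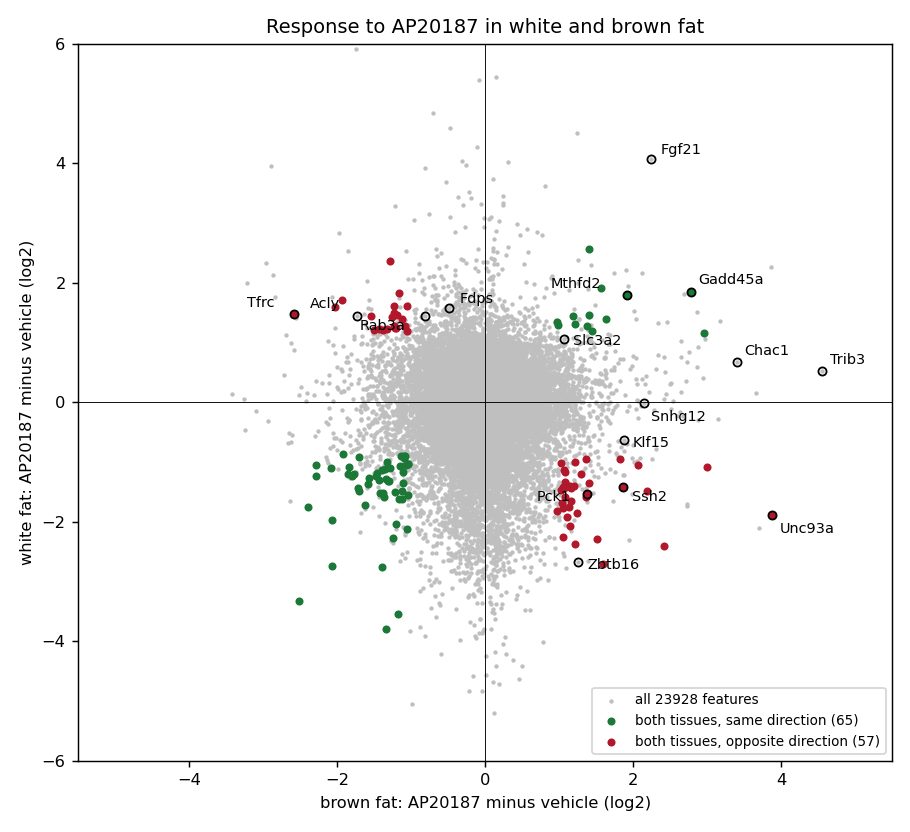
White fat change (vertical) against brown fat change (horizontal), both as mean log2 AP20187 minus mean log2 vehicle, for 23928 features; green marks the 65 that moved the same way in both tissues, red the 57 that moved in opposite directions, and open rings named genes. Trib3 lies at 4.55 in brown and 0.52 in white fat, Fgf21 at 2.24 and 4.07, and 7 features lie outside the axes.

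Of the ISR genes 16 of 20 had a difference below the median of all features, towards brown fat. Of 20 ISR regulators and targets, all of them tested, the median change minus that of all features was 0.20 in white fat and 1.0 in brown, and the median difference -0.97. The brown groups did not overlap, with AP20187 higher, for 12 of 20 (15.8% of all features), against 5 of 20 in white fat (23.5% of all features). With limma none passed in either tissue or for the difference, and 8 of 20 had an unadjusted p under 0.05 for the difference (19.0% of all features), 7 of them with the higher change in brown fat and Stc2 with the higher change in white. All 20 genes are described here, beyond the 4 that the naming rule takes from each list, a choice made after their values were seen.

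Trib3, a pseudokinase that is a target of ATF4 and CHOP and feeds back on both, had the highest brown fat change of the 20. In white fat it stood at 1.78, 2.07 and 2.49 with vehicle and 1.67, 2.83 and 3.41 with AP20187. In brown fat it stood at 3.0 and 2.56 with vehicle and 6.47 and 8.20 with AP20187. The white groups overlap and the brown ones lie far apart: the change was 0.52 (SE 0.50) in white fat and 4.55 (SE 0.61) in brown, which is 23.5-fold. The difference was -4.03 (95% interval -5.78 to -2.28, limma adjusted p = 0.0554).

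Chac1 encodes an enzyme that degrades glutathione and is a textbook target of ATF4; its promoter window is shown above. It stood at 1.30, 1.02 and 1.09 in vehicle white fat and 1.48, 1.79 and 2.16 with AP20187. In brown fat the levels were 0.24 and -0.75 with vehicle and 2.27 and 4.03 with AP20187. Neither tissue's groups overlapped, and the change was 0.67 in white fat and 3.40 in brown, a difference of -2.73 (SE 0.74, adjusted p = 0.0938 by limma).

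Nupr1, a small stress-induced chromatin protein, separated in opposite directions. White fat held 5.78, 6.03 and 5.93 with vehicle and 4.74, 5.63 and 5.73 with AP20187, and brown fat 4.88 and 5.01 with vehicle and 6.33 and 6.19 with AP20187. The difference was -1.86 (SE 0.40, adjusted p = 0.0648 by limma). Sesn2, a leucine-sensing inhibitor of mTORC1, had a change of -0.20 in white fat, where the groups overlap, and of 1.05 in brown, from 1.65 and 1.69 to 2.45 and 2.98. For the lipoprotein receptor gene Vldlr, whose spot on white fat AP20187 replicate 2 was dropped as an outlier, the changes were -0.45 and 0.99, for Jdp2, which encodes an AP-1 family repressor, -0.35 and 1.08, and for the ER-associated degradation gene Herpud1 0.17 and 1.20. The white change of Herpud1 lay between -0.12 and 0.06 under 4 other scalings and below 0 in 3 of them. Cebpg, a partner of ATF4, had changes of -2.0 and 0.78, with readings of 1.15, -4.34 and 2.16 on the treated white fat arrays.

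Ddit3, which encodes CHOP itself, stood at 1.01, 1.47 and 1.39 in vehicle white fat and 1.09, 1.55 and 2.18 with AP20187. Its brown fat levels were 2.40 and 2.09 with vehicle and 3.25 and 4.42 with AP20187. The groups overlap in white fat and not in brown, and the difference was -1.27 (SE 0.57, adjusted p = 0.261 by limma).

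For Atf4, the kinase and the feedback phosphatase the changes were of like size as scaled here. Atf4 messenger RNA had a change of 0.89 in white fat and 0.92 in brown, a difference of -0.03 (95% interval -1.21 to 1.14). That interval is too wide to show that the tissues act alike. Under quantile scaling the changes of Atf4 were 0.46 and 0.83, and its brown change ran from 0.24 to 1.60 with 1 array left out. Ppp1r15a, the stress-induced subunit of the phosphatase that removes the mark PERK places, had a change of 0.76 in both. Eif2ak3, the gene of PERK, differed by -0.04 (95% interval -0.51 to 0.43), with changes of 0.21 and 0.25. Over 11 genes listed for the pathway the median difference minus that of all features was -0.17, and none passed the test. Beside kinases and phosphatases the list holds Atf6, Dnajc3 and Eif2s1. Without brown fat AP20187 replicate 2 the median difference was 0.27. Eif2s1, the gene of eIF2alpha, had a white change of -2.76, with readings of -6.25, 4.49 and 4.43 on the treated white fat arrays.

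The 4 ISR genes on the white fat side of the median difference were Stc2, Atf3, Cebpb and Atf5. Stc2, a secreted glycoprotein, stood at 0.93, 1.06 and 1.04 in vehicle white fat and 1.56, 1.66 and 1.83 with AP20187, so those groups are apart. It was above background on no brown array, so its difference of 1.43 (adjusted p = 0.0983 by limma) rests on an unmeasured brown change. Atf3, a stress-induced repressor of the ATF family, had changes of 0.27 and -0.64, with overlapping groups in both tissues. The changes were 0.79 and 0.13 for Cebpb, which encodes a partner of CHOP, and 0.88 and 0.69 for Atf5, an ATF4 relative; none of these passed. The remaining members were Ddit4, an mTORC1 inhibitor (0.40 and 0.40, with 1 treated white fat spot dropped as an outlier), Eif4ebp1, a brake on translation (-0.27 and 0.42), Ero1a, an ER oxidase (0.62 and 1.02), and Ndrg1 (-0.02 and -0.10). None of these 4 passed in either tissue.

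Replicates of treated brown fat were unequal. AP20187 replicate 2 averaged 4.28 over the ISR list and replicate 1 averaged 3.57, against 2.99 and 2.70 with vehicle. Without replicate 2 the brown median was 0.65, without replicate 1 it was 1.27, and the median difference over every array left out ran from -1.40 to -0.72. Without both white fat arrays that hold epididymal transcripts, AP20187 replicates 1 and 2, the median difference was -0.51 and the white median 0.66. The white median was 0.04 without AP20187 replicate 3. Without the array with contradictory labels the median difference was -0.96. White fat AP20187 replicates 1 to 3 averaged 2.79, 2.98 and 3.47, and vehicle 2.84 to 2.91.

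Genes that host small nucleolar RNAs in their introns, and whose spliced transcripts are short-lived while translation runs, formed a second group with the larger response in brown fat. Of 11 listed genes 5 were tested. Snhg12 stood at 2.0, 2.27 and 2.07 in vehicle white fat and 2.24, 2.04 and 2.03 with AP20187. In brown fat it stood at 1.48 and 1.46 with vehicle and at 3.40 and 3.82 with AP20187. It rose 4.41-fold in brown fat (log2 2.14, SE 0.20, adjusted p = 0.0101 by limma) with a white change of -0.01, and the difference of -2.15 (95% interval -2.72 to -1.59) had a limma adjusted p of 0.0508, which is the smallest in the table and shared by other features. It passed in 7 of 14 other settings and in 4 of 10 fits with an array left out. Snhg1 followed the same pattern without passing, with changes of -0.04 and 1.78. The others were Snhg7 (-0.47 and 0.58), Snhg6 (0.76 and 0.92) and Snhg3 (0.42 and 0.52), and the median difference of the 5 was -1.22 relative to all features. All 5 lay above the median of all features in brown fat, and 2 of them, Snhg6 and Snhg3, in white fat as well.

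Amino acid transporters lay between. Over 10 tested transporters the white median was 0.18, the brown 0.82 and the median difference -0.56. The brown median was 0.33 without brown fat AP20187 replicate 2, and the white 0.07 without white fat AP20187 replicate 1. Slc6a9, a glycine transporter, stood at 1.13 and 0.79 in vehicle brown fat and 3.0 and 4.64 with AP20187, and its white groups overlapped. The changes were 0.59 and 2.86 and the difference -2.27 (SE 0.77, adjusted p = 0.152 by limma). Among stress hormones, Gdf15, which acts on hindbrain neurons to lower food intake, had changes of 0.51 in white and 2.43 in brown fat, and Angptl6 of 0.33 and 1.48, none of which passed.

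**Figure D3:**
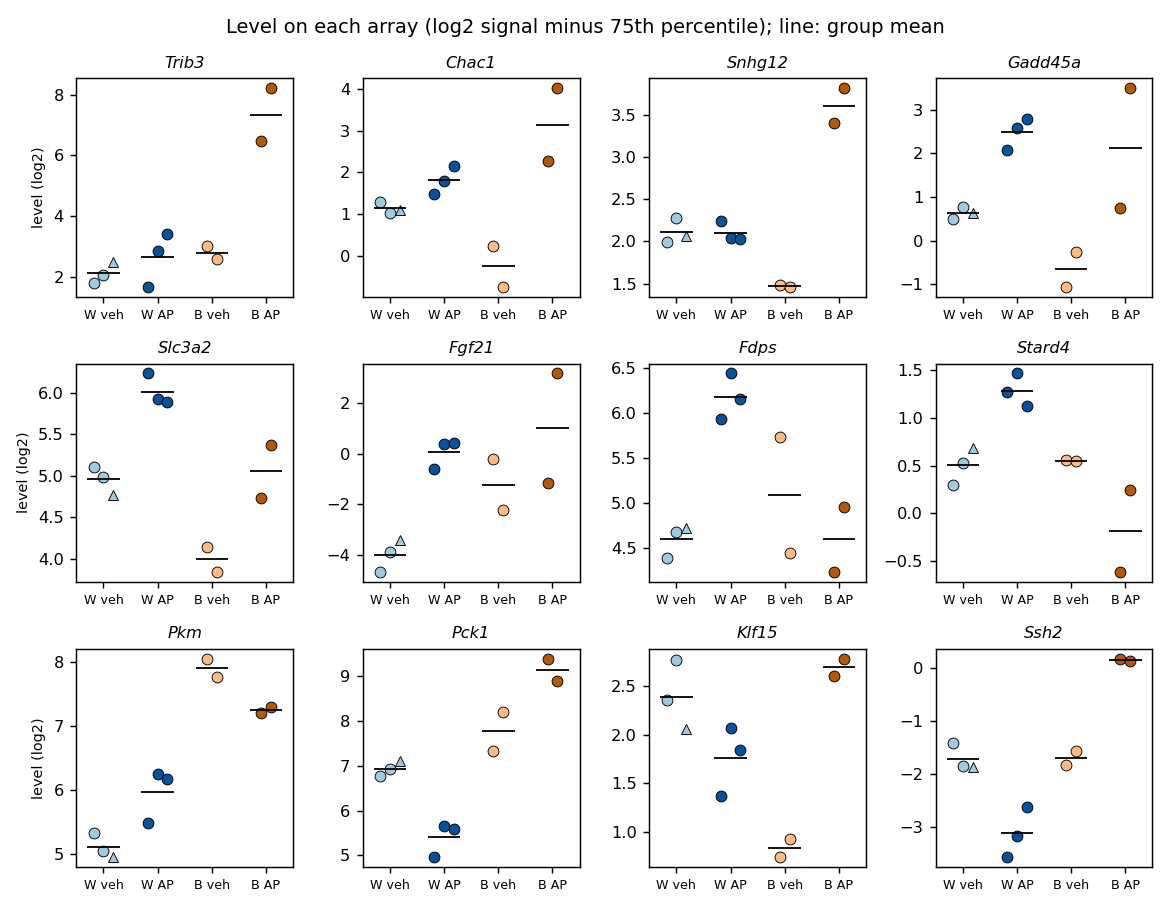
Level on each array (log2, scaled to the array's 75th percentile, vertical axis) for 12 genes, by tissue (W white, B brown) and treatment (veh vehicle, AP AP20187); points are arrays, lines group means, and the triangle is the array with contradictory labels. Trib3 and Snhg12 separate in brown fat, Fdps in white fat and Chac1 in both, and for Stard4, Pkm, Pck1 and Ssh2 the tissues separate in opposite directions.

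Gadd45a and Mthfd2 had separate groups, with AP20187 higher, in both tissues. Gadd45a, a growth arrest gene, went from 0.49, 0.78 and 0.62 to 2.08, 2.59 and 2.78 in white fat and from -1.05 and -0.26 to 0.74 and 3.49 in brown. The changes were 1.85 and 2.77, and the difference of -0.92 has a 95% interval of -2.98 to 1.14. Mthfd2, a mitochondrial enzyme of one-carbon metabolism, stood at -1.0, -1.45 and -1.41 and then 2.05, -0.36 and -0.18 in white fat, and at -1.55 and -1.23 and then -0.77 and 1.81 in brown. Its changes of 1.79 and 1.91 differ by -0.12, within an interval of -2.70 to 2.46. These wide intervals do not show that the tissues act alike.

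Slc3a2, the heavy chain of the exchanger that imports large neutral amino acids, rose in white fat (log2 1.06, adjusted p = 0.022 by limma), from 5.11, 4.99 and 4.77 to 6.23, 5.92 and 5.89. In brown fat it went from 4.14 and 3.84 to 4.74 and 5.38, also a change of 1.06, which did not pass. Asns, the asparagine synthetase whose window is shown above, had changes of 0.65 and 1.15. Outside the naming rule, Slc3a2, Asns, Hmgcs1, Gramd1b, Sars, Mars1, Rars, Snhg3 and the closing section's Adrb3 were picked after their values were seen. Over 14 genes of amino acid and one-carbon synthesis the white median was 0.51 and the brown 0.77. Of these, 10 lay above the median of all features in both tissues (5906 of all 23928 features). The white median was 0.23 under quantile scaling and 0.20 without white fat AP20187 replicate 1. The brown median was 0.37 without brown fat AP20187 replicate 2. The median difference of -0.53 ran from -1.21 to 0.10 with 1 array left out. Psph, the last enzyme of serine synthesis, rose in white fat (log2 1.29, limma adjusted p = 0.039) and had a change of 0.08 in brown.

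Transfer RNA synthetases, which charge amino acids for translation and include many ATF4 targets, had similar medians in both tissues. The median was 0.45 in white fat and 0.42 in brown, and the median difference was 0.07. In both tissues 14 of 20 lay above the median of all features (5906 of all 23928 features). The median difference was -0.33 without brown fat AP20187 replicate 1 and 0.27 without replicate 2. White groups were separate and higher for 13 of 20 (23.5% of all features) and brown groups for 8 (15.8% of all features). Sars, the seryl enzyme, rose in white fat (log2 0.65, adjusted p = 0.0319 by limma) and had a change of 0.44 in brown. Eprs, the glutamyl-prolyl enzyme, had changes of 0.31 and 1.12. On white fat AP20187 replicate 1 the probe of Mars1 read -6.04 and on replicate 2 that of Rars read -5.72, against 2.03 to 2.18 and -0.88 to -0.42 on the other treated arrays, and their white changes were -2.12 and -1.15.

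Fgf21, a hormone that fat and liver release under stress, rose in white fat. It stood at -4.67, -3.87 and -3.43 with vehicle and at -0.61, 0.40 and 0.44 with AP20187, a change of 4.07 (adjusted p = 0.0326 by limma), or 16.8-fold. Brown fat went from -0.21 and -2.23 to -1.14 and 3.18, so its groups overlap, and the difference of 1.82 has an interval of -1.58 to 5.24. Gramd1b, a carrier of cholesterol between membranes, rose in both tissues. It went from 1.54, 1.02 and 1.17 to 2.47, 2.48 and 2.27 in white fat (log2 1.16, adjusted p = 0.0289 by limma) and from 0.31 and 0.02 to 2.56 and 3.68 in brown (log2 2.95, adjusted p = 0.0267 by limma). Acot5, a peroxisomal acyl-CoA thioesterase, rose in white fat by 1.39 and had a brown change of 1.63 that did not pass.

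Genes of cholesterol and fatty acid synthesis had the higher change in white fat. Of 24 genes of cholesterol synthesis and uptake 19 were higher in treated white fat with separate groups (23.5% of all features). With limma 6 passed as higher (6.53% of all features), and the median change was 0.99 above that of all features. In brown fat the median was -0.26, none passed, and 19 of 24 lay above the median in white fat and below it in brown (25.3% of all features). The median difference was 1.32, and 14 of 24 had an unadjusted p under 0.05 for the difference (19.0% of all features).

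Fdps, which makes farnesyl diphosphate, rose by 1.58 in white fat, from 4.39, 4.68 and 4.73 to 5.94, 6.44 and 6.16, a change that passed (adjusted p = 0.0181 by limma). In brown fat it went from 5.74 and 4.45 to 4.24 and 4.96, which overlap, and the difference was 2.08 (95% interval 0.96 to 3.19, adjusted p = 0.078 by limma). For Stard4, a sterol carrier, the changes were 0.78 and -0.73, with separate groups in both tissues, and for Hmgcs1, whose sterol element is shown above, 0.78 and -0.11.

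Vehicle arrays of white fat lay close together over this list, and the other groups did not. On the brown arrays the cholesterol list averaged 2.74 and 1.77 with vehicle and 1.55 and 2.32 with AP20187, so those groups overlap and the brown median ran from -0.78 to 0.10 as single arrays were left out. The white list means were 2.05 to 2.14 with vehicle and 2.57, 3.53 and 3.42 with AP20187. Without the array with contradictory labels the white median was 1.02, and the median difference over all settings ran from 0.69 to 1.76.

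Fatty acid synthesis had the same contrast with more scatter. The white median was 0.78 and the brown -0.54 over 16 genes. Of these, 11 lay on opposite sides with white higher (25.3% of all features), and none passed. The list averaged 5.09 to 5.34 on the vehicle arrays of white fat and 4.72, 6.56 and 6.20 with AP20187, so replicate 1 lay below every vehicle array. With 1 array left out, the white median ran from 0.50 without AP20187 replicate 2 to 1.13 without replicate 1. The brown median ran from -1.18 without vehicle replicate 3 to -0.06 without AP20187 replicate 1, and was -0.22 without vehicle replicate 2 and -0.94 without AP20187 replicate 2. The median difference of 1.18 ran from 0.54, without brown fat vehicle replicate 2, to 1.60. Acly, which supplies cytosolic acetyl-CoA, stood at 8.38, 8.19 and 8.08 and then 9.17, 10.06 and 9.77 in white fat, and at 10.72 and 9.30 and then 6.86 and 9.69 in brown. The brown groups overlap and the difference was 3.19 (SE 0.99, adjusted p = 0.125 by limma). Changes were 1.58 and -1.59 for the desaturase Scd2, 1.18 and -0.84 for malic enzyme Me1, and 1.30 and -0.46 for Srebf1, the factor that drives these genes.

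Relative to the median of all features, glycolytic genes were mostly higher in treated white fat and lower in treated brown fat, by small amounts. Of 19, 16 were above the median in white fat and below it in brown (25.3% of all features). For the difference 10 had an unadjusted p under 0.05 (19.0% of all features). The medians were 0.53 and -0.33. Brown groups were separate with AP20187 lower for 9 of 19 (21.7% of all features), and white groups with AP20187 higher for 8 (23.5%). Pkm, pyruvate kinase, rose in white fat from 5.33, 5.05 and 4.96 to 5.49, 6.24 and 6.17 (log2 0.85, adjusted p = 0.0355 by limma). Its brown fat levels went from 8.05 and 7.76 to 7.20 and 7.29, and the difference was 1.51 (SE 0.33, adjusted p = 0.0671 by limma). Gapdh, often used to normalise expression, rose by 0.73 in white fat and had a change of -0.42 in brown, with no overlap in either tissue. The changes were 1.05 and -0.88 for hexokinase 2 (Hk2), 0.66 and -0.65 for the isomerase gene Gpi1, and 0.75 and -0.83 for transketolase (Tkt) of the pentose phosphate branch. Under quantile scaling the white median of the list was 0.12, the brown -0.26 and the median difference 0.48 instead of 0.92. Under 4 other scalings the lowest white change was 0.10 for Gapdh, 0.08 for Gpi1, 0.18 for Tkt, 0.53 for Pkm and 0.77 for Hk2. The size of the white rise therefore depends on the scaling.

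Genes of the ER folding machinery were higher in treated white fat. Of 21 chaperone and degradation genes 6 passed in white fat, all up (6.53% of all features), and none in brown (0.0167%), with medians of 0.49 and 0.05 and a median difference of 0.38. Ssr1, a subunit of the translocon-associated complex, rose from 4.62, 4.54 and 4.58 to 5.24, 5.40 and 5.35 (log2 0.75, adjusted p = 0.0109 by limma). Its brown fat levels were 3.89 and 3.80 and then 3.77 and 3.83, a change of -0.04 (SE 0.13). Sec61b of the translocation channel rose by 0.81, and calreticulin (Calr) rose by 0.84, with brown changes of -0.38 and -0.58. The disulfide isomerase P4hb rose by 0.69, against -0.22. Several members were highest on white fat AP20187 replicate 1, among them Calr at 6.37 against 5.63 and 5.35 on the other treated arrays. Without that array the white median of the list was 0.14 and the median difference 0.08. On that array 10 epididymal genes averaged 7.23, on AP20187 replicate 2 they averaged 0.67, and on the other white fat arrays -3.44 to -3.07; their part in the ER result was not tested.

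**Figure D4:**
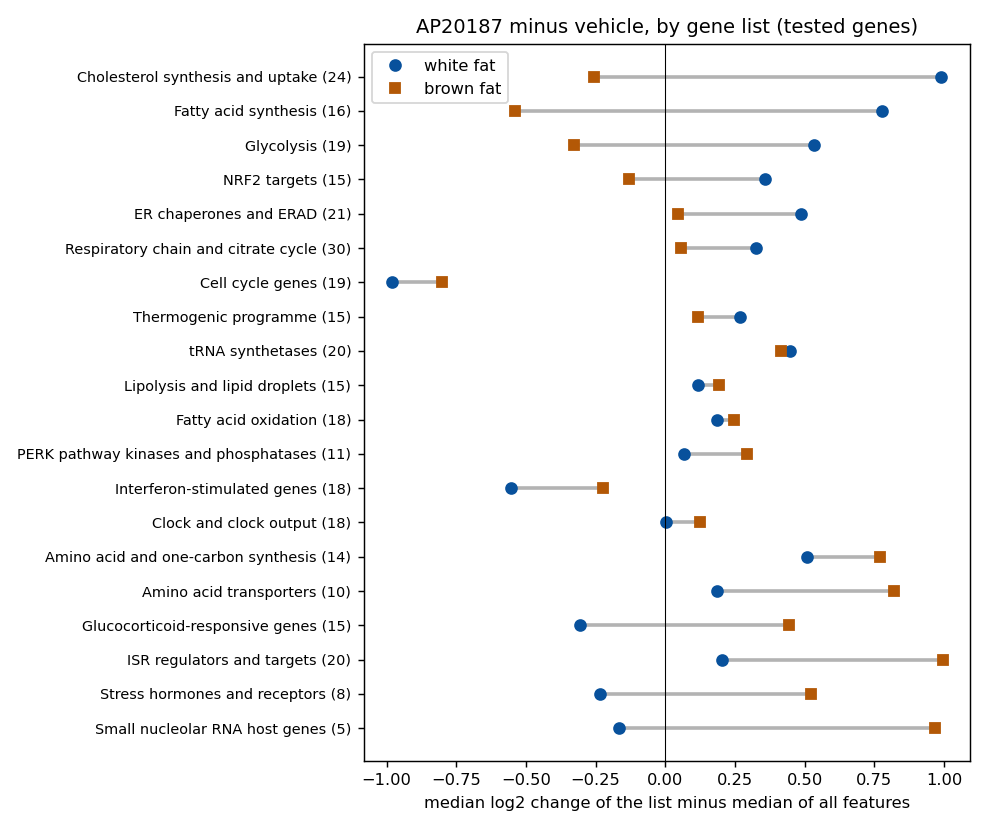
Median log2 change (AP20187 minus vehicle) of each of 20 gene lists minus the median of all features, in white fat (circles) and brown fat (squares), ordered by the median difference; the number of tested genes is in parentheses. Cholesterol genes lie at 0.99 in white and -0.26 in brown fat, ISR genes at 0.20 and 1.0, and tRNA synthetases at 0.45 and 0.42.

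Among single genes the smallest p for a higher white fat response belonged to Rab3a, a small GTPase of vesicle release. It stood at 2.14, 2.50 and 2.38 in vehicle white fat and 3.55, 3.94 and 3.87 with AP20187, and at 3.61 and 3.69 and then 2.88 and 2.79 in brown. The groups are apart in both tissues, in opposite directions: a rise of 1.45 in white fat (adjusted p = 0.0109 by limma) and a brown change of -0.81. The difference was 2.26 (95% interval 1.73 to 2.79, adjusted p = 0.0508 by limma). It passed in 8 of 14 other settings and in 6 of 10 fits with an array left out. Txndc11, a thioredoxin-like ER protein, differed by 1.12, the acetyl-CoA importer of the ER Slc33a1 by 1.49, Ccdc57 by 1.47 and Rbp3 by 1.22. All 4 rose in white fat by 0.58 to 0.87, had brown changes of -0.80 to -0.46, and had groups that did not overlap in either tissue. Mt4, a metallothionein, rose by 1.09 in white fat and was at least 1.61-fold lower in treated brown fat, where it was not well above background.

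Genes lower in treated white fat and higher in treated brown fat included Pck1, which encodes the cytosolic PEP carboxykinase of glyceroneogenesis. It stood at 6.77, 6.93 and 7.11 in vehicle white fat and 4.96, 5.66 and 5.58 with AP20187, a fall of 1.54 on the log2 scale (adjusted p = 0.0213 by limma). Brown fat held 7.34 and 8.20 with vehicle and 9.40 and 8.90 with AP20187, a change of 1.38. No array of one group overlaps the other in either tissue, and the difference was -2.92 (95% interval -4.05 to -1.78, adjusted p = 0.0508 by limma). It passed in 6 of 14 other settings and in 1 of 10 fits with an array left out. One of its treated white fat spots lies in an area of weak signal, and without such areas the limma adjusted p was 0.0468.

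Ssh2, a phosphatase that activates cofilin, fell in white fat from -1.41, -1.85 and -1.88 to -3.57, -3.17 and -2.64 (adjusted p = 0.0129 by limma). In brown fat it went from -1.83 and -1.56 to 0.18 and 0.14, and the difference was -3.27 (SE 0.40, adjusted p = 0.0508 by limma). Ppm1k, a phosphatase that activates branched-chain amino acid breakdown, fell by 0.75 in white fat and had a brown change of 0.71, and Ypel3 fell by 0.78 against 0.60. The interleukin-6 receptor gene Il6ra had changes of -0.83 and 1.48 and N4bp2l1 of -0.81 and 1.88, none of which passed. For these 4 genes the groups did not overlap in either tissue. Unc93a went from 0.60, 0.11 and 0.91 to -0.19, -0.91 and -2.95 in white fat; in brown fat it was not well above background with vehicle and at 0.78 and -0.35 with AP20187, at least 13.2-fold higher. The tubulin ligase gene Ttll2 was at least 1.52-fold lower in treated white fat and at least 4.41-fold higher in treated brown fat, since it was above background in one group of each tissue alone. Hrk, a BH3-only death gene, was at least 1.13-fold lower in white fat and had a change of 1.36 in brown.

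Several of the genes on that side are textbook targets of the glucocorticoid receptor. Of 15 such genes 9 were below the median in white fat and above it in brown (25.3% of all features), with medians of -0.30 and 0.44 and a median difference of -0.97. A single one passed, in white fat: Zbtb16, a zinc finger repressor, fell from 4.65, 4.82 and 4.23 to 1.24, 2.06 and 2.40 (log2 -2.67, adjusted p = 0.0118 by limma). In brown fat it went from 2.93 and 1.29 to 3.92 and 2.81, which overlap, and the difference was -3.92 (SE 0.72, adjusted p = 0.0534 by limma). Klf9, a Krüppel-like factor, had changes of -0.37 and 1.07 with separate groups in both tissues. For Tsc22d3, which encodes GILZ, they were -1.23 and 0.30, and for the cell cycle inhibitor gene Cdkn1a -0.19 and 1.56. The related factor Klf15 stood at 0.74 and 0.92 in vehicle brown fat and 2.61 and 2.79 with AP20187, and at 2.36, 2.77 and 2.06 and then 1.37, 2.07 and 1.85 in white fat, a difference of -2.50 (SE 0.37, adjusted p = 0.0508 by limma). The brown median of the list was 0.05 without brown fat AP20187 replicate 1 and 1.11 without replicate 2, and the median difference -0.32 and -1.68.

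In the other opposite direction, higher in white and lower in brown fat, stood Tfrc, the transferrin receptor that imports iron. It went from 0.16, 0.80 and 0.58 to 1.52, 2.31 and 2.15 in white fat and from 1.60 and 2.13 to -2.45 and 1.01 in brown. The groups are separate in both tissues, the changes 1.48 and -2.59 did not pass, and the difference was 4.07 (SE 1.08, adjusted p = 0.0911 by limma). The DNA helicase gene Recql4 had changes of 1.71 and -1.93, and Nxph4, a neurexophilin, rose by 1.46 in white fat with a brown change of -1.19. Aadacl2fm1 rose by 2.36 and Mro by 1.61 in white fat, and neither was above background on any brown array, so their place in this class rests on unmeasured brown levels.

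Several responses in one tissue rest on single arrays. Of the genes that moved in white fat alone, the highest change among those named was that of the epididymal gene Gpx5, at 9.75, 2.93 and -3.60 with AP20187. It was not well above background with vehicle and so at least 268.3-fold higher. Next was Wfdc10, at 9.14, 1.30 and -3.78 with AP20187 and -4.66 to -4.11 with vehicle, the order of the epididymal genes on those arrays. Clpsl2 reached 7.64 on AP20187 replicate 1 and -0.31 and -1.31 on the others. The lowest changes were those of the deacetylase Sirt3, at -6.03 on AP20187 replicate 1 with 2.67 on replicate 3 and 2.71 to 2.75 with vehicle, and of glycogen phosphorylase Pygb, at -6.22 on that array and 3.45 and 3.55 on the others. The readings of Sirt3 and Pygb on that array lie in areas of weak signal, which took up 5.95% of its spots, 7.45% on AP20187 replicate 2, 1.72% on replicate 3 and at most 0.019% on any other array.

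Genes that moved up in brown fat alone include Trib3, Slc6a9, Snhg12 and Sesn2, described above, and Tmem82, with changes of 2.87 in brown and -0.29 in white fat. Brsk2, E2f2 and Atp4b moved down in brown fat alone. E2f2, a cell cycle factor that is also abundant in developing red cells, stood at 2.74 and 2.71 with vehicle and -0.26 and -0.15 with AP20187, a change of -2.93, and its white groups overlapped. The kinase gene Brsk2 was at least 2.05-fold lower in treated brown fat. Atp4b, a subunit of the gastric proton pump, had a brown change of -3.26, from 3.78 and 3.01 to -2.10 and 2.35.

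Markers of other cell types differed between the arrays compared. Skeletal muscle markers averaged 0.72 and 5.01 in vehicle brown fat and 4.26 and 3.31 with AP20187, and -3.07 to -1.1 on white fat. Of these markers 13 of 15 lay above the median change in both tissues (5906 of all 23928 features). Macrophage markers averaged 1.32 on white fat AP20187 replicate 1 and 2.62 to 2.92 on the other white fat arrays, and in brown fat 1.71 on vehicle replicate 3 against 0.34 to 0.72. The 9 white adipocyte markers averaged 5.56 on white fat AP20187 replicate 1 and 6.55 to 7.0 elsewhere in white fat. Liver plasma protein genes averaged 4.43 on white fat vehicle replicate 2 and 1.16 to 2.87 on the other white fat arrays. In bulk tissue fewer cells of a type and less RNA per cell cannot be told apart, and the part of these markers in the differences above was not tested. Without both white fat arrays that hold epididymal transcripts, the treated arm of white fat is 1 array, which is then assumed to vary like the other groups; the difference passed for 1039 features in that fit, 470 higher in white fat and 569 in brown.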

How the data were processed

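Total RNA of 13 samples was hybridised to Agilent arrays of design 028005, 1 colour each. The deposited intensity was background-subtracted within each array by Feature Extraction 10.7.1.1, per the file headers. The authors' value table holds the same intensity without scaling, within 0.1% for 99.0 to 99.2% of values. Spots marked as outliers were dropped, and the value analysed was log2 of the deposited intensity minus the 75th percentile of the array. Kept were 31765 probes that all arrays of some group showed well above background, and each gene took its brightest probe. Names came from RefSeq accessions (GRCm38.p6): 26056 of 55681 probes matched 1 gene and 29625 none. All 13 arrays in 5 groups were fitted with limma 3.58.1 (lmFit, eBayes) in R 4.3.3. P-values were adjusted over all features by Benjamini-Hochberg, with a threshold of 0.05. The fitting step was tested on simulated data. A probe above background on no array of a group gives a bound: the brighter group's mean against, per array, the higher of its own signal and the lowest signal well above background. The members, gene lists and naming rule were chosen with earlier results of these data known. The rule takes the smallest p-values for the difference, the largest responses of each class and up to 4 genes of each of 30 lists. Same-numbered arrays did not deviate together (correlations -0.038 to 0.106), so the replicate numbers were not used as pairs. The alternatives were other scalings, background correction, filters, probe averaging, the authors' table, blocks, the contradictory array moved or left out, weak areas removed and each array left out. A few list members are not reported here by name and stay in the counts.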

Additional observations from a re-analysis of the deposited data

How the results depend on the processing

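Over the settings 60 differences of named genes were followed. Those of Atf4, Eif2ak3, Mthfd2, Gadd45a, Fgf21 and Stc2 were not among them. A gene named for a large difference tends to keep its sign when the same arrays are refitted, so this is a limited check. All 60 kept their direction in each setting that kept the gene and in the 10 fits that leave out 1 array. There were 14 such settings, save 12 for Mro and 13 for Mt4, Gdf15, Aadacl2fm1, Ttll2, Unc93a, Hrk, Per2, Per3 and Brsk2. Among single tissues, 2 values for the brown change of Psph reversed among the fits with an array left out, with a range of -0.475 to 0.63. The count of differences was 23 with quantile scaling, 91 with normexp and quantile scaling, 72 with arrays scaled on the commonly detected probes, 15 from the authors' value table, 746 with a stricter filter, 2 with the mean of a gene's probes, 173 without areas of weak signal and 1039 without both arrays with epididymal transcripts. It ran from 0 to 1912 with an array left out, the highest without white fat AP20187 replicate 1. White fat calls were 254, 544, 986 and 837 under those scalings and table, 6590 with no filter, 0 with the 10 arrays alone, 0 with slide as a block, 542 without the contradictory array, 0 with it as brown fat vehicle and 0 to 4650 with an array left out. Brown fat calls were 11 with quantile scaling, 1 from the value table, 2 with the stricter filter, 0 with the 10 arrays alone, 2 without the contradictory array, 0 with it as brown fat vehicle, 7 without the epididymal arrays and 2 to 48 with an array left out.

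With the replicate number as a block, without the contradictory array, the difference passed for 0 features, the white fat change for 0 and the brown for 0, and 107 features moved in opposite directions; the numbers do not pair the arrays. Features that moved the same way in both tissues numbered 3 with normexp and quantile scaling, 10 with the stricter filter, 124 without the epididymal arrays and 75 to 182 with an array left out. Opposite movers numbered 8, 16 and 125 in those settings and 70 to 147. White fat alone gave 366 with normexp and quantile scaling, 1651 with no filter, 429 with the stricter filter, 1838 without the epididymal arrays and 780 to 1506 with an array left out. Brown fat alone gave 155 with normexp and quantile scaling, 245 with the stricter filter and 537 to 1406. The cause was not tested, save that fewer arrays or features enter some of these fits. Dim brown arrays, and treated white fat arrays dimmer than the vehicle ones, limit what can be measured of genes near background.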

Other observations

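Of 18 clock genes none passed for the difference between the tissues, and the median difference was -0.34. In white fat 3 of 18 passed (8.11% of all features): Per2 and Per3, repressors of the daily clock, fell by 2.56 and 2.39 on the log2 scale (adjusted p = 0.0116 and 0.019 by limma), and Bhlhe40, another repressor of it, rose by 1.56 (adjusted p = 0.0288 by limma). Per2 stood at -0.98, -1.28 and -1.73 with vehicle and -4.29, -4.21 and -3.17 with AP20187. In brown fat the changes were 0.06, 0.58 and -0.94. Their differences of -2.62, -2.98 and 2.49 had adjusted p-values of 0.085, 0.0845 and 0.0731 by limma. Per2 and Per3 were above background on 1 of 3 treated white fat arrays each, so the size of their falls is uncertain. Under 4 other scalings their white changes ran from -2.85 to -1.05 and from -2.69 to -0.53.

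Most cell cycle genes had changes below the median of all features, 16 of 19 in both tissues (5906 of all 23928 features). No treated brown fat array was above background for 7 of the 19, and no treated white fat array for 2. The size of those changes is therefore uncertain. White fat averaged -0.53, -0.78 and 0.03 over the list with vehicle and -0.87, -0.73 and -1.66 with AP20187, which overlap. The medians were -0.98 and -0.80, and none passed the test. Vehicle brown fat replicates averaged -2.46 and -0.71 over this list, and the brown median was 0.08 without vehicle replicate 3. The beta-3 adrenergic receptor gene Adrb3 fell by 1.5 on the log2 scale in white fat (adjusted p = 0.0215 by limma) and had a change of -1.23 in brown, from 7.02 and 6.93 to 5.54 and 5.96. Esrra, a regulator of mitochondrial genes, rose by 0.99 in white fat (adjusted p = 0.0315 by limma) and had a change of -0.30 in brown. Ucp1 had a change of -0.10 in brown fat, and the leptin gene Lep of -0.12 in white and -1.40 in brown. Interferon-stimulated genes lay below the median in both tissues for 14 of 18 (5906 of all 23928 features). Their medians were -0.55 in white fat and -0.22 in brown, and none passed. NRF2 targets had medians of 0.36 and -0.13.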
